A study of Homo sapiens with 6 samples.

Results

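The apicobasal polarity complexes were represented by 10 genes, chosen by symbol and followed in MCF10A cells plated at increasing density. They were PARD3, PARD6B, PRKCI and PRKCZ of the PAR complex, CRB3 and PATJ of the Crumbs complex, and LLGL1, LLGL2, SCRIB and DLG1 of the Scribble module. All 10 were on the array, with 31 probe sets between them, among 19775 genes and 41091 probe sets assigned to 1 gene symbol. MCF10A is an immortalised line from human mammary epithelium that does not form tumours, grown here in medium with horse serum, EGF, hydrocortisone, cholera toxin and insulin at every density. Cells were plated at 50K, 100K, 200K, 400K, 600K or 800K cells per 35 mm dish (50K stands for 50000 cells), which spans 16-fold, and harvested for RNA 24 h later. A single array (Affymetrix HG-U133 Plus 2) was run per density. There are thus no replicates, and precision is limited by the 6 arrays.

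Epithelial cells separate an apical from a basolateral surface through 3 protein groups, of which the apical ones and the basolateral one exclude each other. The PAR complex, in which PARD3 and PARD6 scaffolds hold an atypical protein kinase C, and the Crumbs complex, in which the transmembrane protein CRB3 is tied by PALS1 to the multi-PDZ protein PATJ, mark the apical side and the tight junction. SCRIB, DLG1 and the LGL proteins mark the basolateral side, and phosphorylation by atypical protein kinase C keeps LGL proteins off the apical cortex. MCF10A cells on plastic are known for incomplete polarity and a weak tight junction programme.

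The values were ratios of each probe set to its own value on the 50K array, so that every gene stood at 1 at 50K and no absolute level was available. A gene's value was the mean of the log2 ratios of all its probe sets, printed here as a ratio. The density trend was the slope of the log2 ratio per doubling of the cells plated, tested with limma over all 19775 genes, two-sided, with a Benjamini-Hochberg adjusted p under 0.05 as the threshold. Errors after ± are standard errors of that fit over 6 arrays, moderated by limma with a variance shared over all genes or probe sets. Apart from that shared part they reflect the scatter of the arrays around a line, which mixes the variation between dishes, technical noise and departures from the line. In bulk RNA, a change in the number of cells that express a gene and a change in RNA per cell cannot be told apart.

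Of the 10 polarity genes, LLGL2 and PATJ rose with density, none fell and 8 did not pass the test. Over all genes, 8.93% rose and 12.4% fell (21.3% passed in either direction). The share of rising members, 20%, rests on 2 of 10 genes, and nothing is read from its distance to that background. At an unadjusted p under 0.05, 5 members passed in limma, all with positive slopes, against 32.7% of all genes in either direction. The changes were small: at 800K the ratios of the 10 genes lay between 0.896 (DLG1) and 1.51 (LLGL2), and only LLGL2 had changed 1.5-fold or more, as had 13.7% of all genes. The median slope of the members was 0.045 log2 units per doubling, against 0.0045 for all genes. At 800K 9 of the 10 genes were above their 50K value, all but DLG1, as were 62.3% of all genes. In order of slope from highest to lowest they ran LLGL2, PATJ, CRB3, PRKCI, PARD6B, SCRIB, LLGL1, PRKCZ, DLG1 and PARD3. The 95% intervals of neighbours in this order overlapped throughout.

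**Figure D1:**
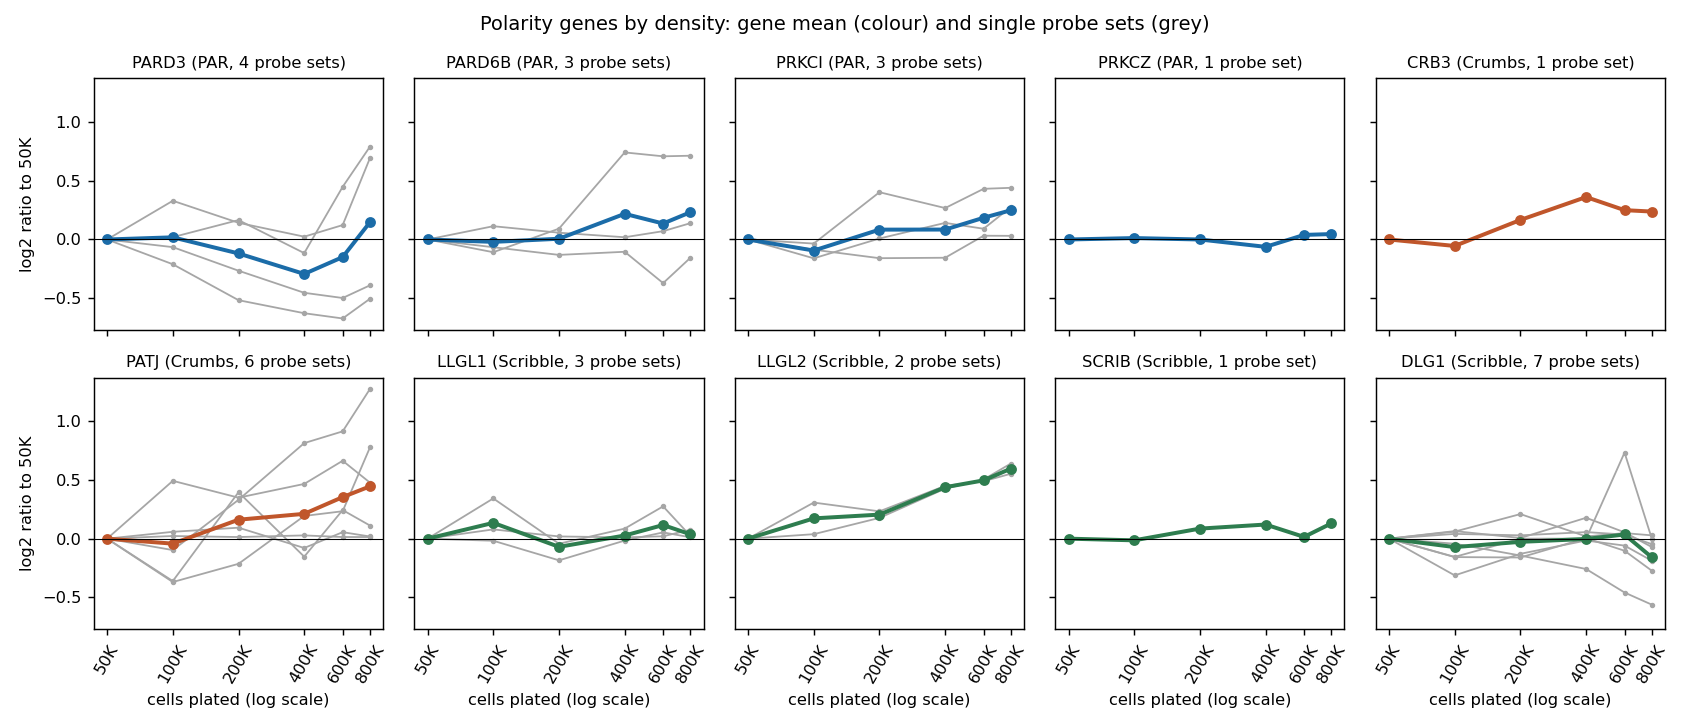
Log2 ratio to the 50K array (vertical axis) against the number of cells plated on a log scale (horizontal axis) for each of the 10 polarity genes, with the gene mean in colour (blue PAR, orange Crumbs, green Scribble) and its single probe sets in grey; each point is 1 array. LLGL2 climbed at every step to a log2 ratio of 0.60 at 800K, while the grey lines of PARD3, PATJ, PARD6B and DLG1 spread apart.

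In the Crumbs complex, PATJ rose and CRB3 lay above 50K from 200K on without passing the test. PATJ, the scaffold at the tight junction end of the complex, had ratios of 0.971, 1.12, 1.16, 1.28 and 1.36 at 100K, 200K, 400K, 600K and 800K. After a value just under that of 50K at 100K, it increased at each of the 4 further steps. Its slope was 0.12 ± 0.02 log2 units per doubling (limma adjusted p = 0.0116), higher than that of 91.8% of all genes. PATJ no longer passed without the 800K array (its adjusted p was then 0.0529 at a slope of 0.10) and when the 3 highest densities were set against the 3 lowest (adjusted p = 0.07). CRB3, the small transmembrane protein that sets up the apical domain, had ratios of 0.962, 1.12, 1.28, 1.19 and 1.18 at 100K to 800K. It was highest at 400K and then lower at 600K and 800K. A line gave a slope of 0.086 ± 0.025 (limma adjusted p = 0.0642, 95% interval 0.023 to 0.15), and none of the 12 other settings brought it past the threshold.

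CRB3 and PATJ are known targets of E-box-binding repressors, and their promoters are shown for these sites. Each sequence is the 250 bases before the start of the gene in RefSeq (GRCh38.p14), with matches to CACCTG or its reverse complement CAGGTG, the E-box of SNAI and ZEB factors, in capitals.
CRB3 (chr19:6464021-6464270, + strand): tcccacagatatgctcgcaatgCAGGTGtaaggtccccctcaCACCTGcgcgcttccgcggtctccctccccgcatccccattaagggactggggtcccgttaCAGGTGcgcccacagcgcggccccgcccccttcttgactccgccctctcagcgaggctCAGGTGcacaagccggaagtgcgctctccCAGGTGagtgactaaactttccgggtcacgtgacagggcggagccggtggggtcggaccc
PATJ (chr1:61742230-61742479, + strand): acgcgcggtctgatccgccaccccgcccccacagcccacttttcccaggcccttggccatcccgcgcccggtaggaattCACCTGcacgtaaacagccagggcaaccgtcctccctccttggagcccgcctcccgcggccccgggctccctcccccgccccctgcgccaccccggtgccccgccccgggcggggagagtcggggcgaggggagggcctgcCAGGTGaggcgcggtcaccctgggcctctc
The CRB3 window held 5 matches, at 228, 208, 147, 89 and 60 bases before the start, and the PATJ window held 2, at 171 and 30 bases. Over 35114 RefSeq start sites, 17.5% of windows of this length had at least 1 match on either strand, 2.53% had 2 or more and 0.074% had 5 or more. Of the 10 genes, 6 matched the RefSeq promoter table with 13 start sites: CRB3, DLG1, LLGL1, PATJ, PRKCI and PRKCZ. Besides CRB3 and PATJ, 1 start of DLG1 held 1 match, and 2 starts of PRKCZ, whose slope was 0.0058, held 3 matches and 1; over all windows, 0.464% had 3 or more. The core of the TEAD site, GGAATG or CATTCC, was in 11.9% of all windows and, among these genes, in that of PRKCI. These matches describe letters in the sequence and not binding.

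Of 5 repressors of polarity genes (SNAI1, SNAI2, ZEB1, ZEB2 and TWIST1), ZEB1 fell and 4 did not pass, where 12.4% of all genes fell. ZEB1, known to repress CRB3, PATJ and LLGL2, had ratios of 0.874, 0.703, 0.532, 0.594 and 0.629 at 100K to 800K. It was lowest at 400K. Its slope was −0.20 ± 0.04 (limma adjusted p = 0.0186). ZEB1 did not pass when 50K (adjusted p = 0.132), 100K (0.0652) or 600K (0.0585) was left out, nor against untransformed cell numbers (0.115) or without probe sets prone to cross-hybridisation (0.0669, at a slope of −0.23). Among its 4 probe sets, 3 had slopes below 0. SNAI2, which encodes Slug, had ratios of 0.766, 0.514, 0.524, 0.59 and 0.626. All 5 lay under 50K, but they did not follow a line (slope −0.18 ± 0.07, adjusted p = 0.121, and 0.046 without the 200K array). SNAI1 (slope −0.081), ZEB2 (0.014) and TWIST1 (0.11) had adjusted p-values of 0.3, 0.583 and 0.221. Against untransformed cell numbers TWIST1 passed with a positive slope (adjusted p = 0.0384). Whether ZEB1 bears on the Crumbs genes or LLGL2 was not tested.

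In the PAR complex no gene passed the test. PRKCI, the atypical protein kinase C iota, came nearest, with ratios of 0.937, 1.06, 1.06, 1.14 and 1.19 at 100K to 800K. Apart from a dip at 100K it lay above 50K at every density. Its slope was 0.069 ± 0.019 (limma adjusted p = 0.0537, 95% interval 0.022 to 0.12). It passed in 4 of 12 other settings: without probe sets prone to cross-hybridisation (slope 0.098, adjusted p = 0.0398), on untransformed cell numbers (0.0257), on its rank (0.034) and without the 50K array (0.0374). PARD6B, the adaptor between CDC42 and the kinase, had ratios of 0.986, 1.00, 1.16, 1.10 and 1.17. The 3 lowest densities lay together and under the 3 highest, and that contrast passed (log2 difference 0.20, adjusted p = 0.0396) while the slope did not (0.063 ± 0.019, adjusted p = 0.0649).

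PRKCZ, the zeta isoform of the kinase, was read by 1 probe set with ratios of 1.01, 1.00, 0.958, 1.03 and 1.03. Its slope was 0.0058 ± 0.015, with a 95% interval of −0.030 to 0.042 log2 units per doubling. Its ratio at 200K equalled 1 within 1e-06, and 1 of its ratios was shared to the last digit by 125 other probe sets of the same array. PARD3, the scaffold that brings the complex to the junction, had ratios of 1.01, 0.921, 0.816, 0.901 and 1.11. It was lowest at 400K and highest at 800K, and its slope of −0.013 ± 0.042 (adjusted p = 0.9) averaged probe sets that moved apart, as described with the probe sets.

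In the Scribble module LLGL2 rose and LLGL1, SCRIB and DLG1 did not pass. LLGL2, an LGL protein of polarised epithelia and a substrate of atypical protein kinase C, had ratios of 1.13, 1.15, 1.35, 1.41 and 1.51 at 100K to 800K. It was the only one of the 10 genes to increase at all 5 steps, with the widest step between 200K and 400K (0.23 log2 units). The slope was 0.14 ± 0.015 (limma adjusted p = 0.00316), higher than that of 94.0% of all genes. LLGL2 passed under all 12 other settings and with the median of its probe sets. LLGL1, its paralog, had ratios of 1.10, 0.953, 1.02, 1.08 and 1.03, which scattered around 50K (slope 0.0071 ± 0.022, 95% interval −0.048 to 0.062). A probe set assigned to both LLGL1 and FLII is not part of this value. Its ratios all lay below 50K, down to 0.678 at 800K.

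SCRIB, the scaffold with leucine-rich repeats and PDZ domains that names the module, was read by 1 probe set with ratios of 0.99, 1.06, 1.09, 1.01 and 1.09. No step was larger than 0.12 log2 units, and the slope was 0.027 ± 0.017 (adjusted p = 0.342, 95% interval −0.013 to 0.068). DLG1, the membrane-associated guanylate kinase scaffold of the module, had ratios of 0.951, 0.981, 0.998, 1.02 and 0.896. The 800K array alone was over 0.1 log2 units from 50K, and the slope of −0.011 ± 0.021 (adjusted p = 0.816) became 0.014 without it and 0.017 without probe sets prone to cross-hybridisation. A quadratic term, which would show a response that bends, passed for 0 of the 19775 genes in limma (0% called, with 12.6% at an unadjusted p under 0.05). For the 10 members its unadjusted p lay between 0.119 (PATJ) and 0.818 (SCRIB).

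Paralogs within a complex were compared directly. The log2 ratio of LLGL2 minus that of LLGL1 was 0.038, 0.27, 0.41, 0.38 and 0.56 at 100K to 800K. The difference in slope was 0.14 log2 units per doubling (exact permutation of the 6 cell numbers over 720 orders, two-sided, p = 0.00278, and 0.00556 adjusted over the 2 pairs). PRKCI minus PRKCZ was −0.11, 0.084, 0.15, 0.15 and 0.20. The slope of this difference was 0.063 (exact permutation p = 0.025, adjusted p = 0.025). PRKCZ was read by 1 probe set with a slope of 0.0058. The difference thus lay near the slope of PRKCI alone, 0.069, which did not pass the test over all genes. With an array left out, the LLGL difference kept an exact p between 0.0167 and 0.025. The PRKC difference reached 0.0667, 0.075, 0.0833 and 0.133 without the 200K, 400K, 600K or 800K array.

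**Figure D2:**
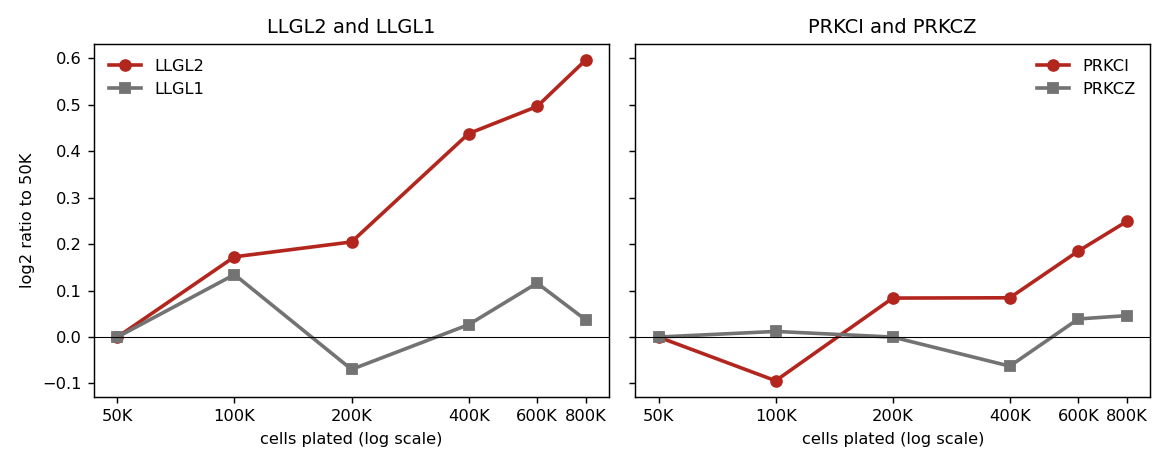
Log2 ratio to the 50K array (vertical axis) against the number of cells plated on a log scale (horizontal axis) for LLGL2 (red) with LLGL1 (grey), and PRKCI (red) with PRKCZ (grey), 1 array per point. LLGL2 reached 0.60 at 800K with LLGL1 at 0.037, and PRKCI reached 0.25 with PRKCZ at 0.046.

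Single probe sets read different stretches of a gene's transcripts, and those of several members did not move alike. Tested alone over all 41091 probe sets (limma), 4 of the 31 probe sets rose and 3 fell, 22.6% in all, where 17.2% of all probe sets passed (7.14% rising and 10.1% falling). Of the 7 members with several probe sets, LLGL1, LLGL2 and PRKCI had slopes of 1 sign throughout, a state shared by 53.8% of the 10523 genes with several probe sets. The transcripts that each probe set reads were not looked up here.

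PARD3 had probe sets on both sides of 0. Probe sets 210094_s_at and 221526_x_at both fell. The ratios of 210094_s_at were 0.956, 0.832, 0.73, 0.708 and 0.763 at 100K to 800K, with a slope of −0.13 ± 0.022 (limma adjusted p = 0.0178). For 221526_x_at they were 0.864, 0.699, 0.647, 0.627 and 0.704, with a slope of −0.15 ± 0.034 (adjusted p = 0.0345). Both lay below 50K at every density, lowest at 600K. The other 2 probe sets were high at 800K: 221280_s_at had a ratio of 1.62 and 221527_s_at one of 1.73 there. Their slopes of 0.077 ± 0.063 and 0.15 ± 0.068 did not pass (adjusted p = 0.529 and 0.219). The falling calls were lost without 50K, 100K or 600K for 210094_s_at (adjusted p up to 0.0885), and for 221526_x_at also without 400K (up to 0.225). Called probe sets in opposite directions occurred in 0.732% of genes with several probe sets, and PARD3 was not among them.

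PATJ had 6 probe sets, of which 214705_at rose and the others did not pass. Its ratios were 0.935, 1.26, 1.76, 1.88 and 2.42 at 100K to 800K, the largest change of any probe set of the 10 genes. The slope was 0.34 ± 0.046 (limma adjusted p = 0.00976), and the call held without any single array (adjusted p up to 0.0429). Of the others, 223681_s_at (ratio 1.71 at 800K, slope 0.19 ± 0.074) and 232041_at (1.39, slope 0.11 ± 0.041) had positive slopes, with adjusted p = 0.153 and 0.136. Probe sets 239173_at and 240570_at stayed between 0.946 and 1.07 at every density. For 239173_at the same ratio, 1.01, stood at 200K, 600K and 800K to the last digit. With the median over the 6 probe sets in place of the mean, an alternative chosen after seeing the data, the slope of PATJ was 0.074 (adjusted p = 0.0603).

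PARD6B was carried by 235165_at, whose ratios were 0.928, 1.07, 1.67, 1.63 and 1.64. These values form a step between 200K and 400K with no further increase (slope 0.23 ± 0.048, limma adjusted p = 0.0272). The call was lost without the 100K, 600K or 800K array (adjusted p up to 0.0868). The other probe sets of PARD6B had slopes of 0.016 ± 0.017 (211907_s_at) and −0.060 ± 0.026 (214827_at), with adjusted p = 0.661 and 0.198. For DLG1, 217208_s_at fell and 6 probe sets did not pass. Its ratios of 0.971, 0.905, 0.836, 0.728 and 0.677 decreased at every step (slope −0.14 ± 0.022, adjusted p = 0.0137, lost without 600K or 800K, with p up to 0.057). At the other end, 229703_at of DLG1 equalled its 50K value within 1e-06 at 200K, 400K and 800K and had a ratio of 1.66 at 600K alone. Ratios repeated across the 5 arrays above 50K occurred in 12.5% of all probe sets.

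Both probe sets of LLGL2 rose. Probe set 1554006_a_at had ratios of 1.03, 1.13, 1.34, 1.42 and 1.56, and 203713_s_at had 1.24, 1.18, 1.37, 1.40 and 1.47. Both passed alone, with slopes of 0.17 ± 0.02 (limma adjusted p = 0.00688) and 0.12 ± 0.022 (adjusted p = 0.0193). Leaving out any array kept the call of 1554006_a_at (adjusted p up to 0.0351), while that of 203713_s_at was lost without 50K, 600K or 800K (up to 0.12).

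**Figure D3:**
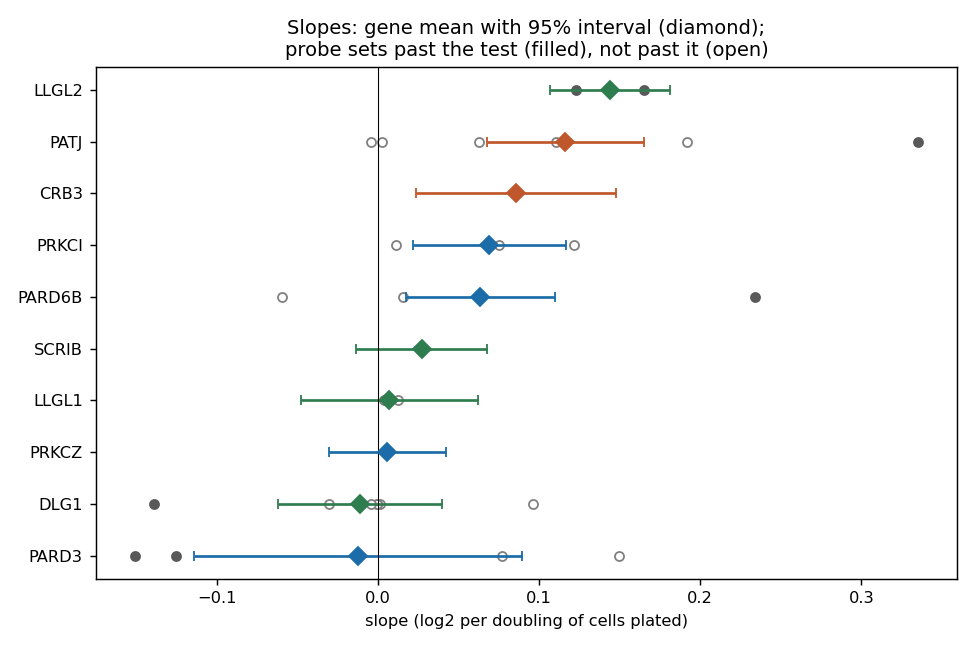
Slope in log2 units per doubling of the cells plated (horizontal axis) for each of the 10 genes (rows, highest slope at the top), with diamonds for the gene mean, bars for its 95% interval, and circles for single probe sets, filled where the probe set passed the test alone. PATJ spans slopes between −0.0043 and 0.34, and PARD3 has 2 filled circles below 0 and 2 open ones above it.

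The profile of LLGL2 over the 5 densities above 50K was closest to those of CAPNS1, the small regulatory subunit of calpains, COG7, a subunit of a Golgi tethering complex, and VIPAS39, a partner of VPS33B in vesicle transport. The root mean square differences of their log2 ratios from LLGL2 were 0.020, 0.026 and 0.028, and their ratios at 800K were 1.51, 1.54 and 1.52. For PARD3, the member with the lowest slope, the nearest genes were ZNF426 (0.041), AK1 (0.049) and NREP (0.058). With 1 array per density these distances have no error of their own.

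The partners of the 3 complexes did not follow 1 direction. Lists of other polarity genes were chosen with earlier results of these data known. Nothing is therefore read from the distance of their counts to those of all genes. The 7 lists of partners, anchors, apical and planar polarity genes held 9, 12, 14, 14, 10, 16 and 12 measured genes. The list of repressors held 5. Over these lists 40 genes passed by their slope and 18 when the 3 highest densities were set against the 3 lowest. Among all 19775 genes, 4220 (21.3%) passed by their slope and 2259 in that contrast. Of the genes named by their rank in a list, those that did not pass that contrast were CDC42, ECT2, MPDZ, AMOTL2, KIF13B, GIT1, MARK4, CDH1, OCLN, MAL2, SYTL4, VANGL1, CELSR2, CELSR3 and PRICKLE2, as well as the repressor ZEB1, with adjusted p between 0.0527 (OCLN) and 0.146 (ECT2). AMOTL2, KIF13B, GIT1, YWHAG, MAL2, RAB8A and PRICKLE2 were read by 1 probe set each, as were the repressors SNAI1, SNAI2 and TWIST1. For these genes no second probe set could be compared. In the list of Crumbs complex paralogs and partners, 5 of 12 measured genes fell, none rose and 7 did not pass (median slope −0.020), where 12.4% of all genes fell and 8.93% rose. AMOTL2, an angiomotin of the junctional actin belt, had ratios of 0.974, 0.736, 0.706, 0.459 and 0.299 at 100K to 800K (slope −0.39 ± 0.08, limma adjusted p = 0.0195; 0.0688 without 100K and 0.0607 without 600K). WWC1, the protein KIBRA, was at 0.66 of its 50K value at 800K (slope −0.16 ± 0.03, adjusted p = 0.0118; 0.0519 without 800K). MPDZ, the multi-PDZ paralog of PATJ, was at 0.661 at 800K (slope −0.16 ± 0.03, adjusted p = 0.00986; 0.0746 without 50K and 0.212 without probe sets prone to cross-hybridisation). PALS1 and AMOTL1 also fell, named here after their values were seen. PALS1, which links CRB3 to PATJ, had ratios of 0.999, 0.975, 0.884, 0.839 and 0.769 (slope −0.092 ± 0.019, adjusted p = 0.0221; up to 0.0862 without 100K, 600K or 800K). AMOTL1 had a slope of −0.10 ± 0.022 (adjusted p = 0.0239; up to 0.175 without 50K, 600K or 800K).

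Among paralogs and partners of the Scribble module, 5 of 14 rose, none fell and 9 did not pass (median slope 0.016), against 8.93% rising and 12.4% falling among all genes. KIF13B, a kinesin that binds DLG1, had ratios of 1.23, 1.61, 1.59, 1.88 and 2.16 (slope 0.25 ± 0.03, limma adjusted p = 0.00314). CASK, a membrane-associated guanylate kinase, was at 1.39 of its 50K value at 800K (slope 0.15 ± 0.02, adjusted p = 0.00675) and GIT1, an adaptor tied to SCRIB through ARHGEF7, at 1.42 (slope 0.13 ± 0.02, adjusted p = 0.00722). These 3 calls held without any single array. The DLG1 paralogs DLG3 and DLG5 also rose, named after their values were seen, with slopes of 0.13 ± 0.02 (adjusted p = 0.0147; 0.11 without 50K) and 0.13 ± 0.03 (adjusted p = 0.0203; up to 0.0626 without 100K or 800K).

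Of 9 PAR complex paralogs and partners, 2 fell, none rose and 7 did not pass (median slope 0.0090), close to the 21.3% of all genes called in either direction. CDC42, the small GTPase that binds PARD6, had ratios of 1.01, 0.894, 0.878, 0.839 and 0.831 (slope −0.075 ± 0.014, limma adjusted p = 0.0156; 0.0576 without 600K and 0.0636 without 800K). ECT2, which serves in cytokinesis, was at 0.582 at 800K (slope −0.17 ± 0.04, adjusted p = 0.034), and its call held only when the array left out was 400K (up to 0.103 otherwise). Without probe sets prone to cross-hybridisation the adjusted p was 0.153 for CDC42 and 0.275 for ECT2. Of 14 genes of the PAR-1 kinases, the PAR-4 kinase complex and the 14-3-3 proteins (PAR-5), 2 rose, 4 fell and 8 did not pass (median slope −0.013; all genes 8.93% rising and 12.4% falling). CAB39, a scaffold of the PAR-4 kinase STK11, was at 0.588 at 800K (slope −0.19 ± 0.02, adjusted p = 0.00314). The 14-3-3 gene YWHAG was at 0.691 (slope −0.15 ± 0.03, adjusted p = 0.0128; 0.056 without 800K) and the PAR-1 kinase MARK1 at 0.764 (slope −0.11 ± 0.02, adjusted p = 0.00821), with 2 of 4 MARK1 probe sets at slopes below 0 and an adjusted p of 0.114 without those prone to cross-hybridisation. The fourth falling gene, named after its value was seen, was the 14-3-3 gene YWHAH (slope −0.087 ± 0.012, adjusted p = 0.00681). MARK4 and STRADA rose (slopes 0.11 ± 0.02 and 0.067 ± 0.014, adjusted p = 0.0221 and 0.0197), and without 50K, 600K or 800K neither passed (up to 0.0943 and 0.0954), nor MARK4 without 100K (0.0623).

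**Figure D4:**
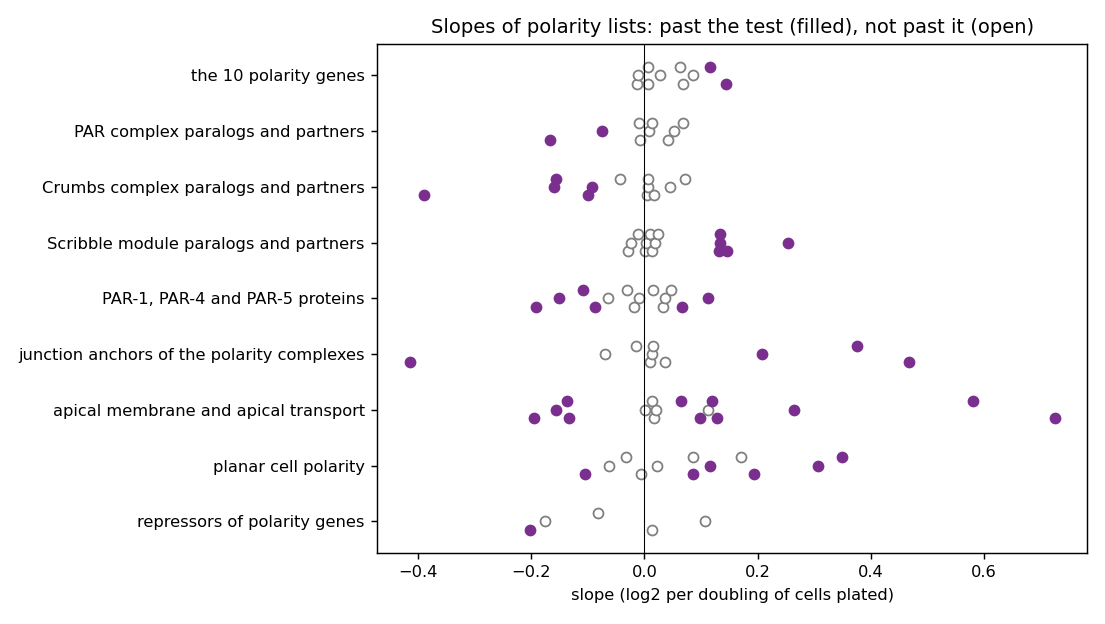
Slope in log2 units per doubling of the cells plated (horizontal axis) of each gene in the lists of polarity genes (rows), filled where the gene passed the test over all genes. The filled points of the Crumbs partners lie below 0 and those of the Scribble partners above 0, while junction anchors and apical genes reach from −0.41 to 0.73.

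Genes that polarity complexes attach to, or that populate the apical surface, were followed in the same way. Of 12 junction anchors 10 were measured: 3 rose, 1 fell and 6 did not pass (median slope 0.015; all genes 8.93% rising and 12.4% falling). CDH1, E-cadherin, had ratios of 1.08, 1.43, 1.56, 1.63 and 1.74 (slope 0.21 ± 0.02, limma adjusted p = 0.00286), and the tight junction genes TJP3 and OCLN reached ratios of 2.82 and 3.16 at 800K (adjusted p = 0.000472 and 0.00454; 0.05 for OCLN on untransformed cell numbers). NECTIN3, an adhesion receptor whose family recruits PARD3, had ratios of 0.777, 0.651, 0.486, 0.36 and 0.311 and fell (slope −0.41 ± 0.03, adjusted p = 0.00103). These 4 calls held without any single array. All probe sets of CDH1 are prone to cross-hybridisation by their suffix, so CDH1 had no value without them.

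Of 16 genes of the apical membrane and of apical transport, 7 rose, 4 fell and 5 did not pass (median slope 0.043), where 8.93% of all genes rose and 12.4% fell. MUC1, an apical transmembrane mucin, had ratios of 1.67, 2.81, 4.48, 6.15 and 7.5 (slope 0.73 ± 0.012, limma adjusted p = 2.06e-05). SYTL2, a RAB27 effector, reached 4.92 at 800K (slope 0.58 ± 0.015, adjusted p = 7.86e-05) and MAL2, a protein of apical transcytosis, 2.00 (slope 0.26 ± 0.03, adjusted p = 0.00379). All probe sets of MUC1 and SYTL2 are prone to cross-hybridisation by their suffix, so neither gene had a value without them. RAB11A, NHERF1, STXBP2 and RAB11FIP1 also rose, named after their values were seen. Their slopes were 0.13, 0.12, 0.098 and 0.064 (limma adjusted p = 0.00776, 0.0293, 0.0144 and 0.0176). Each call was lost without at least 1 of the arrays (adjusted p up to 0.0524, 0.0881, 0.0978 and 0.0843). Without probe sets prone to cross-hybridisation RAB11FIP1 had an adjusted p of 0.424. RAB8A, a GTPase of apical delivery, was at 0.632 of its 50K value at 800K (slope −0.20 ± 0.03, adjusted p = 0.00972) and EZR, ezrin, the linker between apical membrane and actin, at 0.689 (slope −0.16 ± 0.025, adjusted p = 0.00986; 0.174 at a slope of −0.18 without probe sets prone to cross-hybridisation). STX3, an apical syntaxin named after its value was seen, was also at 0.689 (slope −0.13 ± 0.02, adjusted p = 0.00666). SYTL4 fell by the mean of its 3 probe sets (slope −0.14 ± 0.03, adjusted p = 0.0239), with a slope of 0.011 by their median, −0.0085 without those prone to cross-hybridisation and adjusted p-values up to 0.0854 without 50K, 100K or 800K.

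Of 12 genes of planar cell polarity, a pathway in which SCRIB also takes part, 5 rose, 1 fell and 6 did not pass (median slope 0.086), beside 8.93% rising and 12.4% falling over all genes. The atypical cadherin CELSR2 reached a ratio of 2.32 at 800K (slope 0.31 ± 0.04, limma adjusted p = 0.00429). CELSR3 reached 2.66 (slope 0.35 ± 0.09, adjusted p = 0.0356; 0.0532 with centred arrays and up to 0.134 without 50K, 100K, 600K or 800K) and PRICKLE2 reached 1.72 (slope 0.19 ± 0.04, adjusted p = 0.0183; up to 0.0549 without 100K or 800K). VANGL1, a membrane protein that binds SCRIB, was at 0.729 (slope −0.11 ± 0.02, adjusted p = 0.0119; 0.063 without 50K and 0.0561 without 800K). The Frizzled receptors FZD3 and FZD6, named after their values were seen, made up the 5 rising genes (slopes 0.087 ± 0.021 and 0.12 ± 0.03, adjusted p = 0.0324 and 0.0292), and their calls were lost when any 1 of 5 arrays was left out for FZD3 (up to 0.207) and any 1 of 4 for FZD6 (up to 0.0917).

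Over the whole series, arrays above 50K had median ratios of 1.013 to 1.036 across probe sets other than controls. Of 7 mammary epithelial markers measured, KRT5, KRT14 and CDH1 rose and 4 did not pass, where 8.93% of all genes rose and 12.4% fell. As ratios these values say nothing of their level. Of those that did not pass, KRT18 had a slope of −0.098 (limma adjusted p = 0.116), and KRT8, EPCAM and ITGB4 had positive slopes. Among markers of other cell types, 1 of 7 for fibroblasts (DCN), 1 of 4 for leukocytes (CD14) and 2 of 5 for endothelial cells (PECAM1 and KDR) rose and none fell, beside the same shares over all genes. The calls were lost when any 1 of 5 arrays was left out for DCN and KDR (adjusted p up to 0.228 and 0.156) and any 1 of 4 for PECAM1 (up to 0.1), and DCN had a slope of −0.0021 without probe sets prone to cross-hybridisation. The sum of ratios over a list stayed between 7 and 7.61 for fibroblasts, 4 and 9.53 for leukocytes and 5 and 6.45 for endothelial cells, lowest at 50K, where every ratio is 1. CD14 made up most of the leukocyte sum at its highest, with a ratio of 5.93 at 600K against 1.40 for LYZ, 1.14 for CD3E and 1.05 for PTPRC. Their part in the results of the polarity genes was not tested.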

How the data were processed

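Total RNA of 6 cultures was labelled with biotin and hybridised to Affymetrix arrays (HG-U133 Plus 2), as the labels' protocols state. The authors' deposited values are linear ratios of 54675 probe sets to the 50K array, whose column equals 1 within 1e-06. RMA is named without a version, per the submitters' processing notes; the division by 50K and the processing order are not stated in the sources used here, and the sample numbers follow density.

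Control probe sets (62) and those with several symbols (1801) or none listed (11721) were left out; of the 41091 others, 41037 matched the RefSeq gene table. Ratios were log2-transformed without pseudocount or filter. Slopes came from limma 3.58.1 (R 4.3.3; 4 residual degrees of freedom, no trend) and were tested on simulated data. Permutations and promoters used Python 3.11.15 with SciPy 1.17.1.

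Members and lists were chosen with earlier results of these data known. Named were all members and repressors, up to 3 rising and 3 falling genes per list, and the 3 nearest profiles of the members with the highest and lowest slope. Alternatives were leaving out probe sets ending in _x_at or _s_at (prone to cross-hybridisation), median-centred arrays, cell number or rank as scale, 3 highest against 3 lowest densities, robust eBayes, each array left out, and, added after the data were examined, the median over probe sets.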

Additional observations from a re-analysis of the deposited data

How the results depend on the processing

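Among the 10 polarity genes, CRB3, DLG1, LLGL1, LLGL2, PRKCZ and SCRIB stayed on their side of the threshold in all 13 alternatives. So did PARD3 in the 12 that gave it a value, since all its probe sets are prone to cross-hybridisation by their suffix. The slopes of DLG1, LLGL1, PRKCZ and PARD3 changed sign in some alternatives without passing. The count of members called was 2, between 1 (without 800K) and 3 (without 50K) with an array left out, 3 without probe sets prone to cross-hybridisation, on the cell number and on its rank, and 1 with the median of the probe sets, in each case with a cause that was not tested. Over all genes, 4220 were called, against 2664 without probe sets prone to cross-hybridisation (fewer genes tested), 2259 for the 3 highest against the 3 lowest densities and between 2388 and 3909 with an array left out. The genes of the other polarity lists gave 40 calls, 18 for the 3 highest against the 3 lowest densities and 25 to 41 with an array left out. Of the 31 member probe sets 7 were called, and 2 (without 600K) to 8 with an array left out. Leaving out an array moved the slope of LLGL2 minus LLGL1 between 0.13 and 0.15, and that of PRKCI minus PRKCZ between 0.048 and 0.093. The slope of SYTL4, −0.14, was 0.011 with the median of its probe sets. Curvature gave 0 calls without probe sets prone to cross-hybridisation, with centred arrays and with each array left out, the settings it was run under. Signal over background is unknown, so a change near the background of the array would be understated. No paired analysis was possible because each density has 1 array.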

Other observations

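Transcripts annotated beside the polarity genes were read by separate probe sets. The PARD3 divergent transcript PARD3-DT had ratios of 1.03, 1.02, 1.36, 1.62 and 1.02 at 100K to 800K, high at 400K and 600K only (slope 0.10 ± 0.07, limma adjusted p = 0.399). DLG1-AS1, antisense to DLG1, had ratios of 1.17, 1.12, 1.49, 1.04 and 0.972, highest at 400K (slope 0.0083 ± 0.062, adjusted p = 0.962). PRKCZ-AS1 stayed between 1.01 and 1.04 (slope 0.0028 ± 0.012, adjusted p = 0.936). None of the 3 passed the test.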
